A study of Mus musculus with 16 samples.

Results

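The SPARC family of secreted, calcium-binding matrix proteins was followed through ribosome footprints and cytoplasmic RNA of mouse adult neural stem cells. Its 8 members were found by gene symbol in the count table, which holds 20409 genes, and all 8 had an entry: Sparc, Sparcl1, Smoc1, Smoc2, Spock1, Spock2, Spock3 and Fstl1. The family was chosen by the measured KO over WT differences in RNA and footprints, above all that of Sparcl1. Values set between genotypes in RNA or footprints are therefore a description, and the counts of members called there are printed beside the share of all genes with nothing read from them. Tests bear on the comparison of footprints with RNA and on that of replicates 1 and 2 with replicates 3 and 4.

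The dentate gyrus of FVB/N males aged 8 to 10 weeks was the source of the cells, taken from wild type (WT) mice or from Fmr1-/y (KO) littermates that lack FMRP, the RNA-binding protein lost in fragile X syndrome. All cultures grew in EGF and FGF-2 (20 ng/ml each), and all were treated with cycloheximide, which stalls ribosomes on mRNA, at 100 µg/ml for 10 min before harvest. Each of the 4 groups (WT RNA, KO RNA, WT footprints and KO footprints) held 4 libraries, and the 16 libraries came from 8 cultures of independently isolated cells. One lysate of a culture gave both its RNA and its footprints, the mRNA pieces that ribosomes shield from nuclease. The model is a culture of growing cells taken out of the tissue.

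SPARC itself, also called osteonectin, binds collagen and loosens the contact of cells with the matrix, and its relative SPARCL1 (hevin) is best known from astrocytes, where it promotes synapse formation and SPARC opposes it. The SMOC proteins act on BMP signalling, the SPOCK proteins (testicans) are proteoglycans of brain matrix, and FSTL1 is a secreted glycoprotein that modulates BMP signalling. The members share an extracellular calcium-binding domain and a follistatin-like domain, and they are called matricellular because they act on cells from the matrix without being part of its scaffold.

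Upstream sequence was at hand for 5 of the 8 members in the RefSeq promoter table (GRCm38.p6), and 3 are shown because they belong to genes with different behaviour here: Sparc, the leading member in WT cells, Fstl1, which ran higher in KO cells, and Spock2, the abundant testican. Each line gives the 250 bases before the annotated start, 5′ to 3′ in the direction of the gene, at chr11:55420081-55420330 (minus strand) for Sparc, chr16:37776805-37777054 (plus strand) for Fstl1 and chr10:60106007-60106256 (plus strand) for Spock2. Capitals mark matches on either strand to GGGCGG, the core of the GC box, or to GGAGG, a purine-rich element, and these matches can overlap.
Sparc: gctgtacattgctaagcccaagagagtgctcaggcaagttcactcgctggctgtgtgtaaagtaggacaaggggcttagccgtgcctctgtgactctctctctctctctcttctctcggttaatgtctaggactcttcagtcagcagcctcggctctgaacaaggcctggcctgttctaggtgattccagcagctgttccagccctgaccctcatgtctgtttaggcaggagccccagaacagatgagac
Fstl1: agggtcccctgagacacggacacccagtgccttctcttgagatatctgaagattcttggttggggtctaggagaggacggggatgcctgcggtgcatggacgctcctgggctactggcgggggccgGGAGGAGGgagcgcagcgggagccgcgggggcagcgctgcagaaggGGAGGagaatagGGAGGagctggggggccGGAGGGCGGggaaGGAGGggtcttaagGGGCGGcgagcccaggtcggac
Spock2: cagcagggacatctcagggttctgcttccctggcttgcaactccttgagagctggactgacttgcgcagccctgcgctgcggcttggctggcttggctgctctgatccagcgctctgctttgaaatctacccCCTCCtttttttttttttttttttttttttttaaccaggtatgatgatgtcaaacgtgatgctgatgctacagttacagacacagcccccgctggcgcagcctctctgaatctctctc
The Fstl1 window held 16 CG dinucleotides, 2 matches to GGGCGG and 6 to GGAGG. The Sparc window held 4 CG dinucleotides and no match to either motif, and the Spock2 window held 7 CG dinucleotides and 1 match to GGAGG. Among 32851 mouse windows of 250 bases the median was 6 CG dinucleotides, 32.7% held GGGCGG and 66.9% held GGAGG. None of the 3 windows held TATAAA, the core of the TATA box, on either strand, and 12.4% of all windows did. These matches describe the letters of the windows, and binding was not measured.

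Total estimated counts per library were 5343042 to 6600023 in RNA and 9430732 to 17220236 in footprints. The targeted gene, Fmr1, had 129 to 149.6 CPM (library-scaled counts, with TMM factors within an assay) in WT footprints and 12.7 to 27.0 CPM in KO footprints. In RNA it had 27.4 to 107 CPM in WT and 3.35 to 30.8 CPM in KO, where KO RNA 2 lay above WT RNA 4. Neural stem and progenitor markers summed to 7262 to 15327 CPM over the 16 libraries. Astrocyte markers summed to 1842 to 9718 CPM, endothelial markers to 5.51 to 33.5 CPM, mural cell and fibroblast markers to 1.46 to 9.20 CPM and microglia markers to 0 to 1.30 CPM. The microglial genes Cx3cr1 and Aif1 had no count in any group, nor had the endothelial gene Cldn5. In such bulk samples fewer cells of a type and less RNA per cell cannot be told apart.

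The leading member of the family differed between the genotypes. On the per-length scale (TPM, which the authors rounded to whole numbers), Sparc was first of the 8 members in each of the 8 WT libraries and made up 48.0% to 84.7% of their summed TPM. Sparcl1 made up 3.32% to 14.7% of the summed TPM in WT libraries and 39.6% to 66.2% in KO libraries, and it was first in 7 of the 8 KO libraries. The exception was KO footprints 2, where Sparc held 45.0% and Sparcl1 39.6%. The Sparcl1 TPM was 0.0411 to 0.276 of the Sparc TPM in WT libraries and 0.881 to 5.25 times the Sparc TPM in KO libraries, so the ratio did not overlap between the genotypes. Smoc1, with 9.35% to 36.2% of the summed TPM in WT libraries, was second there except in WT footprints 2.

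**Figure D1:**
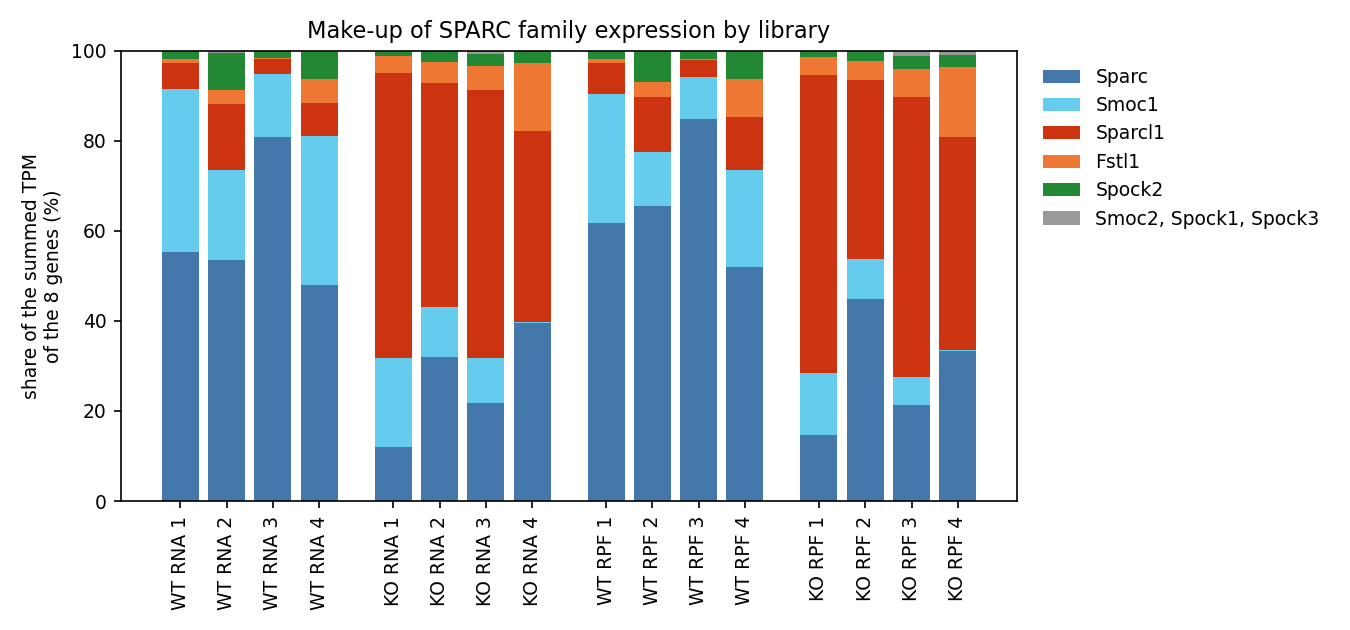
Share of the summed TPM of the 8 genes (%) held by each gene, with 1 bar per library and the 4 libraries of a group side by side (RPF, ribosome footprints). Sparc fills 48.0% to 84.7% of each WT bar, and Sparcl1 fills 39.6% to 66.2% of each KO bar.

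By mean TPM, the order in WT RNA was Sparc (658 ± 482, SD, n = 4), Smoc1 (339 ± 373), Sparcl1 (87.0 ± 65.8), Spock2 (41.3 ± 29.0), Fstl1 (21.0 ± 13.8), Smoc2 (1.50 ± 1.00), Spock1 (0.25 ± 0.50) and Spock3, listed at 0. In KO RNA it was Sparcl1 (483 ± 174), Sparc (233 ± 128), Smoc1 (101 ± 86.8), Fstl1 (58.0 ± 32.4), Spock2 (19.5 ± 8.35) and Smoc2 (2.00 ± 1.41), with Spock1 and Spock3 listed at 0. Within 1 SD, neighbours in these orders overlapped down to the fifth gene, whereas the steps down to Smoc2 in both genotypes and from Smoc2 to the genes listed at 0 in KO did not overlap. Footprint TPM kept the first place of Sparc in WT (1019 ± 714) and of Sparcl1 in KO (694 ± 140), against 131 ± 86.3 for Sparcl1 in WT and 397 ± 266 for Sparc in KO.

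Sparcl1, the synapse-promoting relative of SPARC on chromosome 5 (104079108 to 104114088), was the member with the widest gap between the genotypes. Its RNA stood at 247, 226, 40.5 and 87.1 CPM in WT replicates 1 to 4 and at 1175, 1045, 755 and 585 CPM in KO replicates 1 to 4. Its footprints stood at 431, 378, 73.2 and 209 CPM in WT and at 1824, 1435, 1452 and 1194 CPM in KO. Every KO library was above every WT library in both assays, and WT 3 was the lowest culture in both. Among all genes tested, 0.703% were higher in KO RNA and 1.04% higher in KO footprints without overlap between the groups.

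The fitted log2 fold change of Sparcl1, KO over WT, was 2.57 (SE 0.54) in RNA and 2.62 (SE 0.39) in footprints. Within same-numbered pairs the log2 difference in RNA was 2.25, 2.21, 4.21 and 2.74, and in footprints it was 2.08, 1.92, 4.31 and 2.51. Pair 3, the pair with the lowest WT culture, gave the largest difference in both assays, and without WT replicate 3 the fitted values were 2.25 in RNA and 2.26 in footprints. In replicates 1 and 2 alone the fitted log2 fold change was 2.22 in RNA and 2.02 in footprints, and in replicates 3 and 4 alone it was 3.39 and 3.22. Both sets belong to the data by which the family was chosen, so their common direction is a description and not support.

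Astrocyte markers were measured beside Sparcl1 because that gene is best known from astrocytes. In RNA 3 of the 13 tested markers had positive KO over WT fold changes, with a median of -0.29, and in footprints 9 of 14 did, with a median of 0.13. Their summed level was 1855 to 9007 CPM in WT RNA, 1976 to 5297 CPM in KO RNA, 1898 to 9718 CPM in WT footprints and 1842 to 6715 CPM in KO footprints, so the genotypes overlapped in both assays. Of the 17 markers, Gjb6 was at 0 in KO RNA and in WT footprints. No marker of the list passed by edgeR, DESeq2 or limma-voom in either genotype comparison, and at an unadjusted edgeR p under 0.05 there were 0 in RNA and 1 in footprints (Aldh1l1). Over all genes tested, 208 of 11097 in RNA and 527 of 11472 in footprints were under that unadjusted threshold.

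Sparc (chromosome 11, 55394159 to 55420080), the collagen-binding member, ran the other way with groups that overlapped. Its RNA stood at 882, 309.7, 370.1 and 215 CPM in WT replicates 1 to 4 and at 84.5, 256, 106 and 206 CPM in KO. Its footprints stood at 1724, 894, 687 and 405 CPM in WT and at 179, 716, 219 and 372 CPM in KO. WT 1 was the highest culture and KO 1 the lowest in both assays, while WT 4 and KO 4 were close. The KO value was lower in 4 of 4 pairs in each assay, by a log2 difference of -3.38, -0.27, -1.81 and -0.06 in RNA. The fitted log2 fold change was -1.44 (SE 0.50) in RNA and -1.22 (SE 0.46) in footprints, and without WT replicate 1 the RNA value was -0.87.

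No collagen gene among those whose proteins SPARC binds passed edgeR's test between genotypes. All 4 collagen genes tested of the 7 listed had negative RNA fold changes (median -0.52, against 0.01 over all genes tested). The abundant basement membrane genes Col4a1 and Col4a2 had RNA log2 fold changes of -0.31 (SE 0.30) and -0.10 (SE 0.29). Col5a2, a gene of fibrillar type V collagen singled out after its values were seen, had 92.0, 24.7, 6.75 and 3.44 CPM in WT RNA and 1.22 to 1.49 CPM in KO RNA, and 102.5, 40.3, 6.08 and 6.59 CPM in WT footprints against 1.10 to 4.17 CPM in KO footprints. Every KO library was below every WT library in both assays, with WT 1 the highest, and DESeq2 called Col5a2 in both (edgeR log2 fold changes -4.54, SE 1.00, and -3.05, SE 1.03, not called). Among all genes tested, 0.577% were lower in KO RNA and 0.846% lower in KO footprints without overlap. DESeq2 called 0.18% of all genes in RNA and 0.715% in footprints. Matricellular genes of other families had negative RNA fold changes in 7 of 7 tested with a median of -0.61, and 0 passed. Tnc, which encodes the anti-adhesive glycoprotein tenascin C, had an RNA log2 fold change of -0.50 (SE 0.30).

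Smoc1 (chromosome 12, 81026808 to 81186414), which encodes a modulator of BMP signalling, differed more between cultures than between genotypes. Its RNA stood at 991, 199.5, 110.1 and 254 CPM in WT replicates 1 to 4 and at 239, 150.4, 82.7 and 1.98 CPM in KO. Its footprints stood at 1246, 258, 118 and 264 CPM in WT and at 260.5, 219, 98.1 and 2.31 CPM in KO. WT 1 was far above the rest and KO 4 far below them in both assays, and the groups overlapped. The KO value was lower in 4 of 4 pairs in each assay, with log2 differences in RNA of -2.05, -0.41, -0.41 and -6.79. The fitted log2 fold change of -1.71 (SE 1.06) in RNA became -0.66 without WT replicate 1, and in footprints -1.79 (SE 0.91) became -1.25.

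Smoc2 (chromosome 17, 14279490 to 14404790), the relative of Smoc1, was near the limit of detection, with 0.588 to 4.55 CPM over the 16 libraries. Its groups overlapped in both assays, and the log2 fold change was 0.40 (SE 0.68) in RNA and -0.32 (SE 0.48) in footprints. The direction turned in RNA without KO replicate 3 (-0.23) or in replicates 1 and 2 alone (-0.59), and in footprints without WT replicate 2 (0.25) or in replicates 3 and 4 alone (0.05), so no direction is given for Smoc2. Of the BMP pathway, 15 of 21 listed genes were tested and 0 passed in RNA or in footprints, with medians of 0.00 and -0.03. Bmpr2, a type II BMP receptor gene, had an RNA log2 fold change of -0.49 (SE 0.50), and Id3, a BMP target gene, had a footprint log2 fold change of 0.06 (SE 0.23).

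Fstl1 (chromosome 16, 37777055 to 37836516) was, after Sparcl1, the other member with KO RNA above WT RNA in every library. Its RNA stood at 15.3, 19.0, 0.823 and 23.6 CPM in WT replicates 1 to 4 and at 26.7, 37.6, 25.4 and 80.5 CPM in KO. Its footprints stood at 26.4, 47.7, 2.03 and 65.6 CPM in WT and at 48.1, 68.3, 63.2 and 177 CPM in KO. The RNA groups did not overlap, by a narrow gap between WT 4 and KO 3, whereas the footprint groups did overlap. Of all genes tested in RNA, 0.703% were higher in KO without overlap. WT 3 was again the lowest culture and KO 4 the highest in both assays. The fitted log2 fold change was 1.53 (SE 0.75) in RNA and 1.24 (SE 0.83) in footprints. Without WT replicate 3 the footprint value was 0.74, and without KO replicate 4 the RNA value was 1.02.

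Other genes with follistatin-like domains did not pass either. Of the 10 listed, 4 were tested, and all 4 had negative RNA fold changes (median -0.45). Agrn, which encodes the heparan sulfate proteoglycan agrin, had an RNA log2 fold change of -0.45 (SE 0.58).

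Spock2 (chromosome 10, 60106257 to 60135198) was the testican with counts in every library of both assays. Its RNA stood at 43.9, 74.3, 10.2 and 43.5 CPM in WT replicates 1 to 4 and at 12.3, 31.1, 20.8 and 21.0 CPM in KO. Its footprints stood at 73.3, 132, 15.5 and 68.8 CPM in WT and at 23.1, 51.7, 42.8 and 43.6 CPM in KO. The groups overlapped through WT 3, which was below every KO culture in both assays. The KO value was lower in 3 of 4 pairs and higher in pair 3 in each assay. The fitted log2 fold change was -1.01 (SE 0.52) in RNA and -0.71 (SE 0.54) in footprints. The RNA value was -0.61 without WT replicate 2, -1.46 in replicates 1 and 2 alone and -0.36 in replicates 3 and 4 alone. The footprint value was -0.39 without WT replicate 2, -0.36 without KO replicate 1 and -1.16 without WT replicate 3, and it was -1.44 in replicates 1 and 2 alone and 0.03 in replicates 3 and 4 alone.

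WT culture 3 was thus the lowest WT culture for Sparcl1, Smoc1, Spock2 and Fstl1 in both assays, but not for Sparc. Synapse organisers, the genes through which SPARCL1 is known to act among others, had negative RNA fold changes in 10 of 12 (median -0.27) and 0 passed. Ptprs, a receptor phosphatase gene, had an RNA log2 fold change of -0.31 (SE 0.28) and Nrxn2, a neurexin gene, had -0.22 (SE 0.28). Of the matrix proteases and their inhibitors, 9 were tested in RNA and 0 passed (median -0.32). Over the 6 pathway lists together, edgeR had 1 of 51 genes tested in RNA and 7 of 54 in footprints at an unadjusted p under 0.05, DESeq2 called 1 in each after adjustment (Col5a2), and limma-voom called 0. Over all genes tested, edgeR had 208 of 11097 in RNA and 527 of 11472 in footprints at that unadjusted threshold. DESeq2 called 0.18% of all genes in RNA and 0.715% in footprints, and nothing is read from the list counts.

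**Figure D2:**
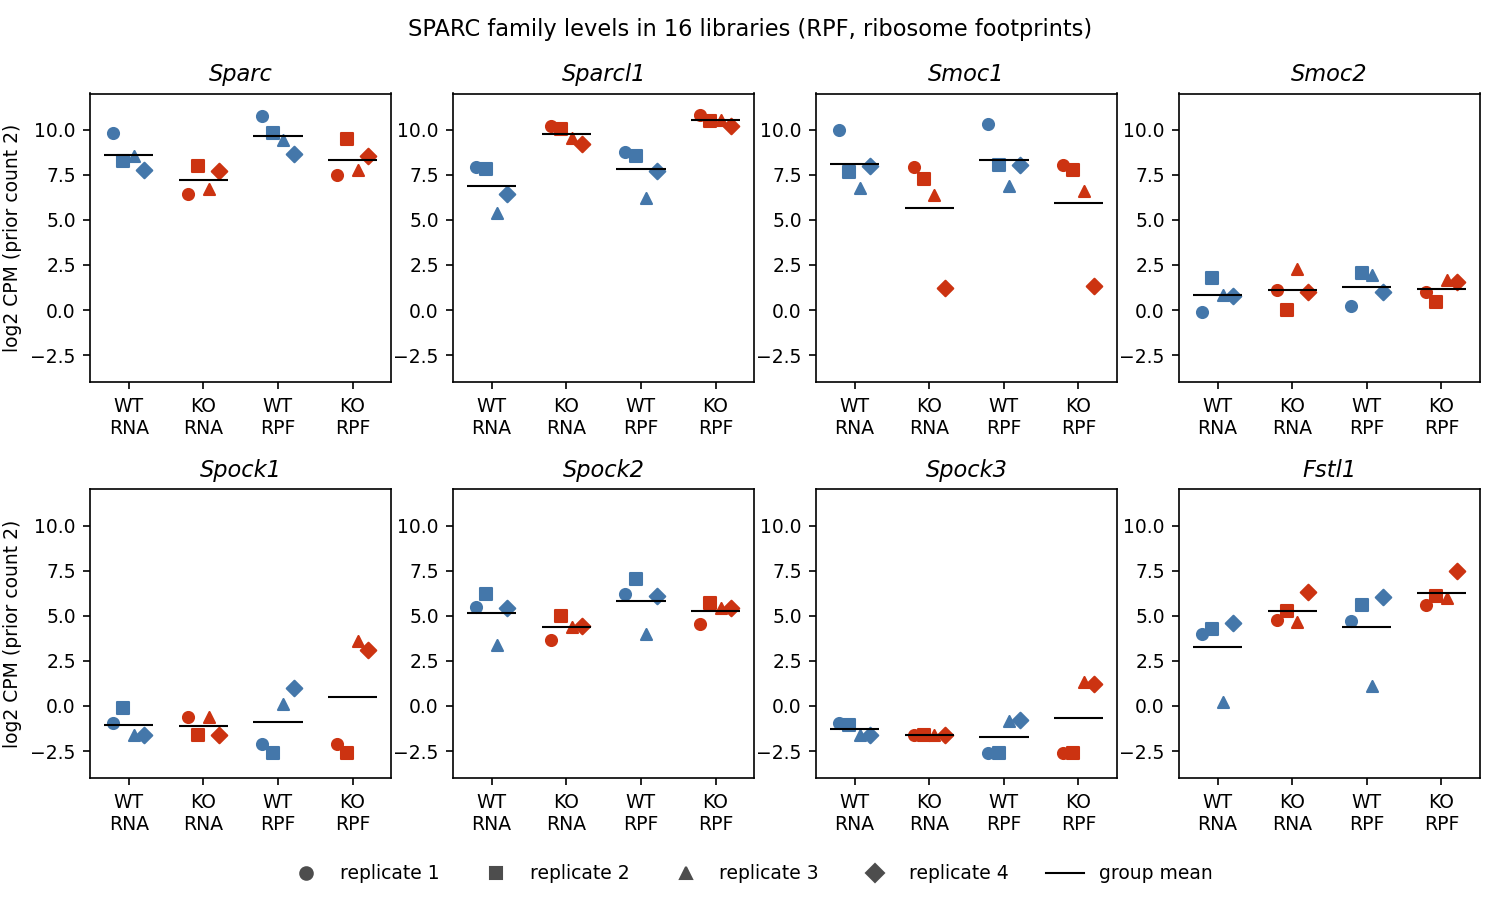
Level of each member in the 16 libraries as log2 CPM with a prior count of 2 (RPF, ribosome footprints), with 1 point per library, marker shape for the replicate number and a line at the mean of the 4 libraries. Sparcl1 has every KO library above every WT library in both assays, Smoc1 falls to 1.98 and 2.31 CPM in KO 4, and Spock1 and Spock3 footprints are high in replicates 3 and 4 alone.

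With edgeR's quasi-likelihood test and adjustment over all genes, 0 of 6 members tested were called between genotypes in RNA, where 0.00901% of all genes were, and 0 of 7 in footprints, where 0.0349% were. At an unadjusted p under 0.05 there were 2 members in RNA (Sparc and Sparcl1), where 208 of all 11097 genes tested were. In footprints there were 3 (Sparc, Sparcl1 and Spock1), where 527 of all 11472 genes tested were. Spock1 passed the filter on low counts there only through replicates 3 and 4. DESeq2 called 1 member in RNA (Sparcl1), with 0.18% of all genes called, and 2 in footprints (Sparcl1 and Spock1), with 0.715%, while limma-voom called 0 in either (0% of all genes in RNA and 0.0523% in footprints). These counts come from the contrast by which the family was chosen and are not support for it.

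The footprints relative to RNA, a measure of translational efficiency (TE), did not differ past the test between genotypes for any member. The interaction of assay and genotype had log2 values of 0.25 (SE 0.72) for Sparc, 0.06 (SE 0.70) for Sparcl1, -0.05 (SE 1.50) for Smoc1, -0.72 (SE 0.85) for Smoc2, 0.30 (SE 0.80) for Spock2 and -0.29 (SE 1.20) for Fstl1. With the culture as a replicate block the SE fell, and the values were 0.05 (SE 0.16) for Sparc, -0.14 (SE 0.13) for Sparcl1, 0.08 (SE 0.14) for Smoc1, -0.57 (SE 0.49) for Smoc2, 0.22 (SE 0.15) for Spock2 and -0.21 (SE 0.17) for Fstl1. None of the 6 passed edgeR's test, nor at an unadjusted p under 0.05, nor by DESeq2 or limma-voom, and neither did any of the 10863 genes tested after adjustment (0%). A p that misses the threshold does not show equal efficiency, and the SE of the blocked values gives the precision reached.

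Within each genotype, footprints of most members took a larger share of their library than the RNA did. The log2 ratio of footprint CPM to RNA CPM within a culture was 0.97, 1.53, 0.89 and 0.92 for Sparc in WT cultures 1 to 4 and 1.08, 1.48, 1.05 and 0.85 in KO cultures. Sparcl1 had 0.80, 0.74, 0.85 and 1.26 in WT and 0.63, 0.46, 0.94 and 1.03 in KO. Both genes were above 0 in all 8 cultures, and the genotypes overlapped. Spock2 had a mean of 0.71 ± 0.10 in WT and 0.93 ± 0.15 in KO (SD, n = 4 each), and Smoc1 had 0.21 ± 0.16 in WT and 0.28 ± 0.18 in KO (SD, n = 4 each). Fstl1 had 1.04 ± 0.23 in 4 KO cultures and 1.20 ± 0.36 in 3 WT cultures, WT 3 being left out for fewer than 10 RNA counts. Of these 5 genes Smoc1 was nearest to an equal share in both genotypes. Smoc2 reached 10 counts in both assays in 3 KO cultures, with a mean of 0.03 ± 0.67 (SD, n = 3) and values from -0.61 to 0.73, and in 1 WT culture, with 0.36.

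**Figure D3:**
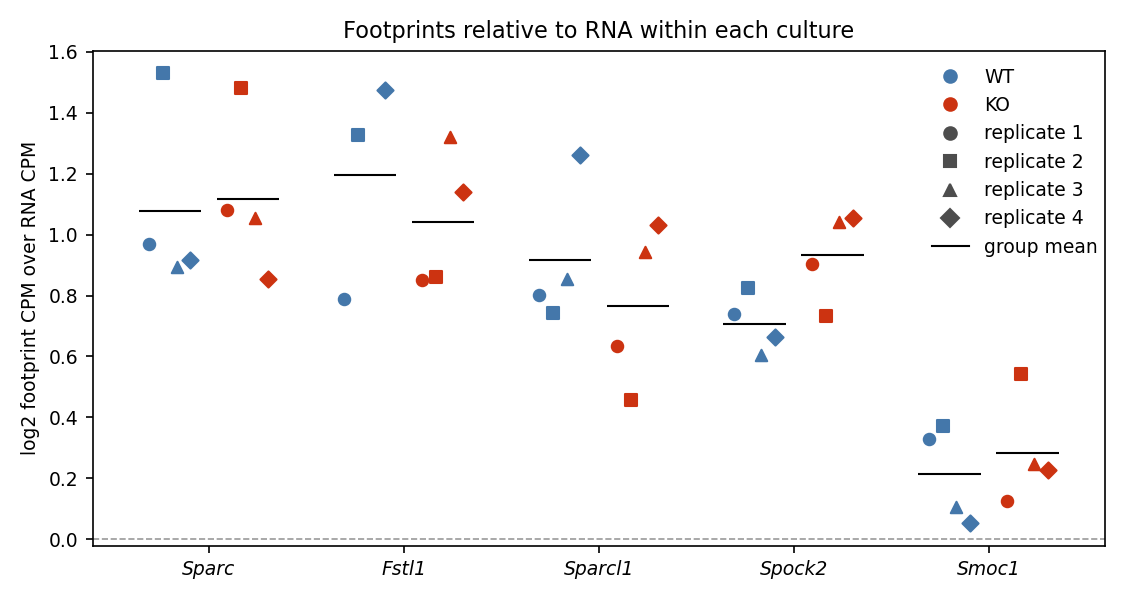
Log2 ratio of footprint CPM to RNA CPM for 5 members (Smoc2 is not drawn) in each culture with at least 10 counts in both assays, by gene and genotype, with marker shape for the replicate number and a line at the mean. All points drawn lie above 0, and of these 5 genes Smoc1 lies lowest with means of 0.21 in WT and 0.28 in KO.

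Fitted with the culture as a block, 5 of 6 members were higher in footprints than in RNA in WT cells, where 35.9% of all genes tested were. The same 5 were higher in KO cells, where 35.6% of all genes were. In WT the log2 difference was 1.25 for Sparc (SE 0.16, edgeR adjusted p = 4.01e-05), 1.09 for Sparcl1 (SE 0.15, adjusted p = 7.03e-05), 1.39 for Fstl1 (SE 0.20, adjusted p = 0.000103), 0.89 for Spock2 (SE 0.14, adjusted p = 0.000266) and 0.39 for Smoc1 (SE 0.13, adjusted p = 0.0226). In KO it was 1.28 for Sparc (SE 0.12, edgeR adjusted p = 5.85e-05), 0.92 for Sparcl1 (SE 0.13, adjusted p = 0.000473), 1.20 for Fstl1 (SE 0.14, adjusted p = 0.000161), 1.09 for Spock2 (SE 0.14, adjusted p = 0.000274) and 0.45 for Smoc1 (SE 0.12, adjusted p = 0.0108). Smoc2 did not pass in either, with 0.86 (SE 0.37, edgeR adjusted p = 0.0578) in WT and 0.31 (SE 0.38, adjusted p = 0.49) in KO. These differences are per library share: footprints cover coding sequence alone, so the value of a gene also moves with the coding part of its transcript, and the part of this was not tested.

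Smoc1 lost its call in WT when replicate 1, 2 or 3 was left out (edgeR adjusted p = 0.19, 0.0921 and 0.0827) and in KO when replicate 1 or 3 was left out (0.0561 and 0.0541). Without the block, edgeR called 0 of the 6 in WT, where 2510 of all 11323 genes tested were higher and 2369 lower. In KO it called 3 of the 6 as higher (Sparc, Sparcl1 and Spock2), where 3037 of all 11418 genes tested were higher and 3080 lower.

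Genes of the surrounding pathways were called in both directions in the comparison of footprints with RNA. Over all genes tested in WT, 35.9% were higher and 33.5% lower in footprints. The counts of these short lists stand beside those shares, and nothing particular to a list is read from them. Of the matricellular genes of other families, 2 of 8 tested were higher and 2 lower in WT footprints: Lgals1, which encodes the small lectin galectin-1, had 3.27 (SE 0.19) and Tnc had -0.43 (SE 0.16). Of the other genes with follistatin-like domains, 1 of 4 was higher (Fst, which encodes follistatin, 0.72, SE 0.29) and 3 lower, Agrn among them at -0.53 (SE 0.14). Of the collagens 1 of 4 was higher (Col5a2, 0.57, SE 0.20) and none lower. Of the proteases and inhibitors 6 of 9 were higher, with the inhibitor gene Timp3 at 2.19 (SE 0.21), and 1 lower (the membrane-type protease gene Mmp15, -1.38, SE 0.15). The BMP list had 5 of 15 higher, led by Id3 at 3.32 (SE 0.22), and 4 lower, with the inhibitory Smad gene Smad7 at -2.81 (SE 0.44). The synapse organisers had 4 of 12 higher, with the calcium channel subunit gene Cacna2d1 at 1.14 (SE 0.22), and 4 lower, with the neuroligin gene Nlgn2 at -3.05 (SE 0.17). In KO cells Lgals1 had 3.19 (SE 0.15), Timp3 2.12 (SE 0.15) and Nlgn2 -3.04 (SE 0.13).

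Spock1 and Spock3, the other testican genes, showed a pattern of their own: footprints in replicates 3 and 4, and almost none in replicates 1 and 2 or in RNA. Spock1 (chromosome 13, 57421195 to 57908332) had 1, 0, 129 and 92 footprint counts in KO replicates 1 to 4 and 1, 0, 9 and 17 in WT. Its RNA counts were 2, 0, 2 and 0 in KO and 1, 4, 0 and 0 in WT. Spock3 (chromosome 8, 62951000 to 63357101) had 0, 0, 25 and 23 footprint counts in KO and 0, 0, 4 and 4 in WT, and its RNA had 1 count each in WT 1 and WT 2 and none elsewhere. For both genes the KO footprint libraries 3 and 4 were highest and the WT footprint libraries 3 and 4 next.

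In KO, the share of Spock1 in a library's footprint counts was 317 times as high in replicates 3 and 4 as in replicates 1 and 2, from 221 counts against 1, with a 95% exact interval of 56.3 to 12600. In WT it was 35.9 times as high, from 26 counts against 1 (5.89 to 1470). For Spock3 the 0 counts of replicates 1 and 2 were replaced by a floor of 3 counts over the group. The ratio was then 22.9 in KO, from 48 counts against 0, and 3.68 in WT, from 8 against 0. Against RNA of the same KO cultures, the share of Spock1 footprints was 64.9 times as high (221 counts against 2, interval 17.8 to 539). For Spock3 the ratio to RNA with the same floor was 9.40. The intervals cover counting error only, and the ratios with a floor leave out the counting error of the footprints in replicates 3 and 4. Of the 8626 genes with at least as many KO footprint counts in replicates 3 and 4 as Spock1, 21 (0.243%) had as few RNA counts there. Both cutoffs are the counts of Spock1, which is itself among the 21, so this share is a description and not a test.

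Replicates 1 and 2 carried molecular identifiers of 5 nt in their footprint libraries and replicates 3 and 4 identifiers of 8 nt, so replicate set and identifier cannot be told apart. With genotype as a covariate, edgeR called Spock1 alone of 7 members tested in footprints as higher in replicates 3 and 4, where 7.56% of all genes were. Spock1 passed the filter on low counts only through replicates 3 and 4, where it was high, so nothing is read from that call and the counts above are its description. Spock3 did not pass the filter on low counts and was not tested.

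Some markers of neurons had the same pattern of counts as these testicans, which are genes of neuronal matrix. Over replicates 1 and 2 against replicates 3 and 4, footprint counts were 1 against 302 for Stmn2 and 0 against 289 for Slc17a7, genes of a neuronal growth protein and of a glutamate transporter of synaptic vesicles. Of the 302 Stmn2 counts 272 were in KO and 30 in WT, and of the 289 Slc17a7 counts 265 were in KO and 24 in WT. RNA of the same replicates 3 and 4 held 1 count of Stmn2 and 31 of Slc17a7, against 72 of Slc17a7 in RNA of replicates 1 and 2.

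Among the other markers, 4 had more footprint counts in replicates 3 and 4 than in replicates 1 and 2, and most of these were in KO. The synaptic vesicle genes Snap25 and Syt1 had 403 against 110 (345 of the 403 in KO) and 588 against 309 (539 in KO), Gad1, which encodes a GABA-synthesising enzyme, had 531 against 501 (462 in KO), and the splicing factor gene Rbfox3 had 21 against 12 (19 in KO). The remaining 4 had fewer, with 52 against 169 for the neuroblast gene Dcx, 2208 against 4387 for the tubulin gene Tubb3, 45768 against 66500 for the microtubule gene Map2 and 131 against 155 for the transcription factor gene Neurod1. Of the 309 Syt1 counts in replicates 1 and 2, 305 were in WT footprints 2. The marker counts are not scaled, and footprint libraries of replicates 3 and 4 were smaller (9430732 to 10849981 counts, against 13099475 to 17220236). A direction can therefore change with scaling. In the scaled edgeR fit, 6 of the 9 markers tested had positive log2 differences of replicates 3 and 4 over replicates 1 and 2. The other 3 had negative ones. The summed level of the 10 markers was 264 to 753 CPM in WT RNA, 292 to 653 CPM in KO RNA, 1149 to 1881 CPM in WT footprints and 978 to 1299 CPM in KO footprints, with no marker at 0 in any group. In all, 41 genes had at least 50 footprint counts over replicates 3 and 4 and at most 3 over replicates 1 and 2, and 8 genes had the reverse. The part of neuronal transcripts in the testican footprints was not tested.

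**Figure D4:**
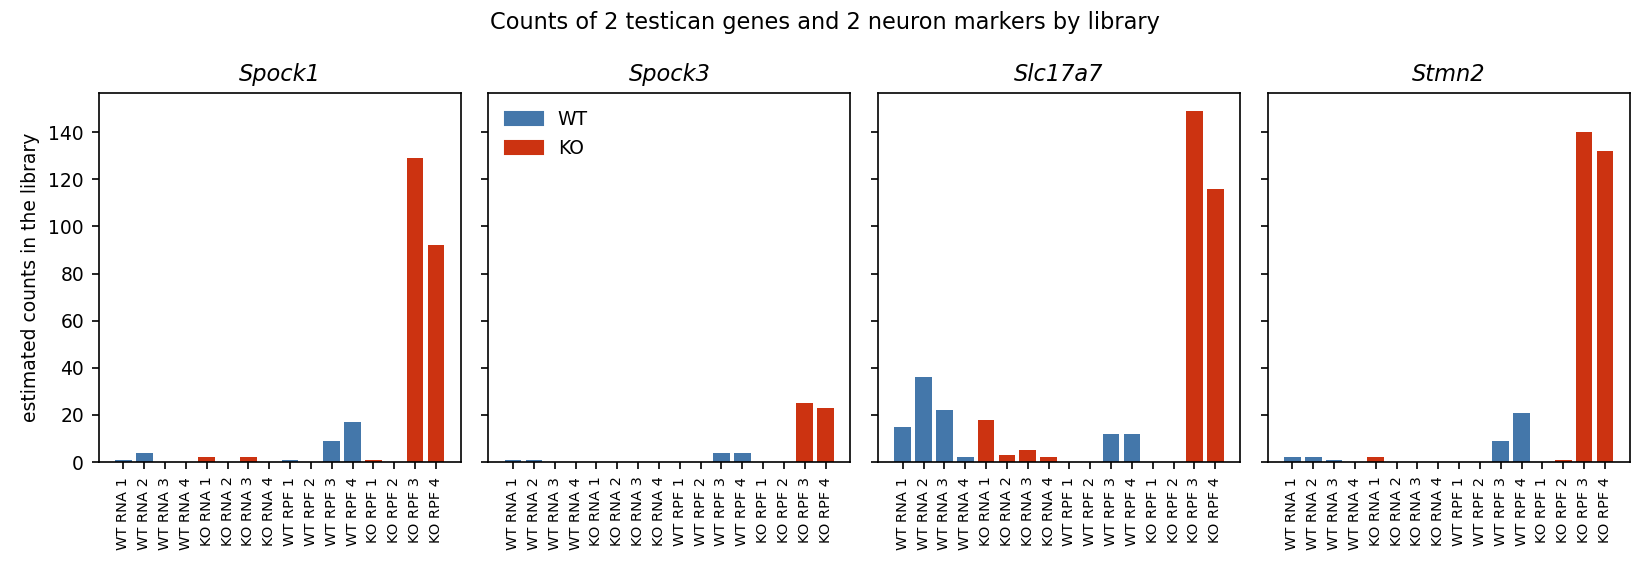
Estimated counts of Spock1, Spock3 and the neuron markers Slc17a7 and Stmn2 in each of the 16 libraries (RPF, ribosome footprints), blue for WT and red for KO. All 4 genes are highest in KO footprints 3 and 4, with 129 and 92 counts of Spock1, and have at most 1 footprint count in any library of replicates 1 and 2.

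Sparcl1 was also compared between the replicate sets. In RNA it was lower in replicates 3 and 4 (log2 difference -1.30, SE 0.31, edgeR adjusted p = 0.0206), the 1 member of 6 called, where 13.1% of all genes were lower. A count of 1 in 6 cannot be set apart from that share, and nothing particular to the family is read from it. The adjusted p was 0.0612 without WT replicate 4. In footprints the log2 difference was -0.91 (SE 0.37, edgeR adjusted p = 0.119), and DESeq2, which called 29.6% of all genes, gave an adjusted p of 0.0463. Smoc1 had larger differences, of -1.95 (SE 0.87) in RNA and -2.12 (SE 0.92) in footprints, and did not pass (edgeR adjusted p = 0.123 and 0.135). Of the astrocyte markers, 7 of 13 tested were lower in RNA of replicates 3 and 4, where 13.1% of all genes were. In footprints 10 of 14 were lower, where 11.5% of all genes were. None were higher in either assay, where 12.1% of all genes in RNA and 7.56% in footprints were. The part of these astrocyte marker differences in the Sparcl1 difference was not tested.

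Each member with values in both assays had its own nearest companions across libraries. Likeness was the mean of 2 Pearson correlations of log2 CPM, one over the 8 RNA and one over the 8 footprint libraries, among 9426 other genes with a mean of at least 5 CPM in both assays. Libraries of a culture share a lysate and footprint libraries of a set share an identifier length, so these values describe the libraries only. Sparc was most like Cxcr4, a chemokine receptor gene (0.956), then Npdc1 (0.938) and Usp40 (0.929). Sparcl1 was most like Grm3, a glutamate receptor gene (0.931), and had 0.898 with the cytochrome P450 gene Cyp1b1. Smoc1 was most like the matrix gene Spon1 (0.975), then Gaa (0.966) and Gatm (0.950). Spock2 was nearest to Mapk8ip2 (0.905), P3h4 (0.884) and the basement membrane gene Nid1 (0.848). Fstl1 was nearest to Casd1 (0.934), Unc13a (0.892) and Dguok (0.883), and Smoc2 to Camk1 (0.869), Adam19 (0.858) and Rab3a (0.847). No member was among the candidates.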

How the data were processed

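RNA and ribosome footprints of 8 cultures gave 16 libraries. The authors deposited estimated counts per gene and a table of TPM without decimals, which is handled as a score. Among the tools in the submitters' processing notes are RSEM 1.2.11, TopHat2 2.0.9 and Bowtie2 2.1.0, with the build mm10. The sources used here do not say how identifiers were merged or if counting used strand. Of 20436 entries, 27 bore a bare number in place of a symbol (0.244% to 0.422% of a library's counts) and were left out.

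The main test was edgeR 4.0.16 in R 4.3.3 (TMM, filterByExpr, quasi-likelihood, two-sided, Benjamini-Hochberg over all genes, threshold 0.05). The model held genotype alone for RNA, identifier length too for footprints, and an interaction over 16 libraries for TE. Footprints were set against RNA with the culture as a block. Alternatives were DESeq2 1.42.0, limma-voom (limma 3.58.1), RLE factors, no filter, the replicate block and the omission of each replicate. Each replicate set alone was added after seeing the data. Fitted footprint over RNA values scale both assays together, whereas ratios per culture use CPM scaled within an assay. Coordinates are 1-based, from RefSeq for GRCm38.p6, the assembly of mm10.

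The members and lists were chosen with earlier results of these data known. The naming rule takes all members, up to 4 called genes of a list or else its 2 most abundant ones, and the 3 genes most like each member; some of these are not reported here, and Col5a2, Aldh1l1 and neuron markers beyond the rule were picked from their values. The titles give the replicate numbers. Pairs with the same number deviated together from their group means, with r of 0.562 to 0.668 for RNA and of 0.444 to 0.601 for footprints. Libraries of different number were not correlated, and same-numbered libraries belong to the same replicate set, so these r cannot tell pairing from set. Pairing of WT with KO by number is therefore an assumption. No 2 libraries were identical. The code was tested on simulated data.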

Additional observations from a re-analysis of the deposited data

Results flagged for a closer look

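In 27 groups of 4 libraries with enough counts, 3 had 1 library far from the others relative to the range of the group. The rule is meant to flag about 1 in 20 independent groups of normal values. CPM was not put on a log scale here, and RNA and footprints of a culture share a lysate, so that rate does not carry over. Smoc1 stood at 991 CPM in WT RNA 1, with the next library at 254 CPM. The footprints of the same culture stood at 1246 CPM of Smoc1, with the next library at 264 CPM. Fstl1 stood at 177 CPM in KO footprints 4, with the next library at 68.3 CPM.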

How the results depend on the processing

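The genotype contrasts called few genes and their counts moved with most settings; the cause was not tested. In RNA edgeR called 1 gene, DESeq2 20, limma-voom 0, the fit with the replicate block 0, replicates 1 and 2 alone 0, replicates 3 and 4 alone 0, and omission of single replicates 0 to 1. In footprints edgeR called 4, DESeq2 82, the replicate block 0, replicates 1 and 2 alone 0, replicates 3 and 4 alone 2, and omission of single replicates 0 to 14. TE gave 0 in each of these settings.

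Without the replicate block, footprints against RNA in WT called 4879 genes in place of 7865. There the edgeR adjusted p was 0.0912 for Sparc, 0.232 for Sparcl1, 0.711 for Smoc1, 0.292 for Spock2 and 0.268 for Fstl1, and in KO it was 0.787 for Smoc1 and 0.0652 for Fstl1. For the replicate sets, RNA calls ran from 1091 to 2855 over single omissions against 2796, and footprint calls from 319 to 2222 against 2185, with 3398 by DESeq2. The lowest counts came without WT replicate 4 in RNA and without WT replicate 3 in footprints.

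Differences between sets that were not called turned sign for 2 members. For Fstl1 in RNA the log2 value 0.13 became -0.18 with limma-voom and -0.10 without KO replicate 1 or -0.43 without KO replicate 4, and single omissions ran from -0.49 without WT replicate 4 to 0.62 without WT replicate 3. In footprints 0.46 became -0.14 with limma-voom and -0.03 without KO replicate 4, and single omissions ran from -0.27 without WT replicate 4 to 0.96 without WT replicate 3. Smoc2 in RNA, at 0.47, ran from -0.053 without KO replicate 3 to 1.28 without WT replicate 2. Depth limits Smoc2, Spock1 and Spock3, whose RNA held at most 28 counts in a library.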

Other observations

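Genes of the pathways around the family were also called between the replicate sets. Over all genes tested, 13.1% were lower and 12.1% higher in RNA of replicates 3 and 4, and 11.5% lower and 7.56% higher in footprints, and the counts of these short lists stand beside those shares with nothing particular to a list read from them. In RNA of replicates 3 and 4, 3 of 7 matricellular genes tested were lower, with Tnr, which encodes tenascin R, at a log2 difference of -3.06 (SE 0.53, edgeR adjusted p = 0.00941), and Lgals1 was higher at 1.12 (SE 0.26, edgeR adjusted p = 0.0197). Tnr was also lower in footprints, at -2.46 (SE 0.53, edgeR adjusted p = 0.0225). The agrin gene Agrn was lower in both assays, at -1.50 (SE 0.34) in RNA and -1.71 (SE 0.35) in footprints. Of the BMP list, 5 of 15 were lower and 1 higher in RNA, and 3 lower and 0 higher in footprints, among them the receptor gene Bmpr1b (-2.85, SE 0.53 in RNA) and the BMP target gene Id4 (-4.03, SE 0.67 in RNA). Of the synapse organisers, 3 of 12 were lower in RNA and 2 of 12 in footprints, with the receptor phosphatase gene Ptprs at -0.94 (SE 0.19) in footprints. None of the 4 collagens tested was called in either assay by edgeR.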
